A study of Mus musculus with 39 samples.

Results

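The 35 genes described here encode enzymes of the citric acid cycle (14 genes) and of mitochondrial fatty acid oxidation (21 genes), and were taken by symbol from a list of pathway members. All 35 were found among the 55573 genes of the count files, and all 35 were among the 18394 genes that passed the expression filter. The citric acid cycle oxidises acetyl-CoA in the mitochondrial matrix and hands electrons to the respiratory chain. Fatty acids enter the matrix through the carnitine shuttle and are then shortened by repeated rounds of dehydrogenation, hydration, a second dehydrogenation and thiolysis, with part of the electrons passed on by the electron transfer flavoprotein. In peripheral nerve, the lipid-rich myelin sheath is broken down after injury, and its fatty acids are a potential substrate of this pathway.

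The counts came from bulk RNA sequencing of sciatic nerve endoneuria, the tissue inside the perineurium with axons, Schwann cells, macrophages, fibroblasts and vessels. Mice were on a C57BL/6 background and between 2 and 4 months old. *Lepr*-ctrl mice were Leprfl/fl, and *Lepr*-cKO mice were Leprfl/fl::Dhh-Cre, in which Cre under *Dhh* regulatory sequences acts in Schwann cells from embryonic life on and removes exon 1 of the leptin receptor gene, while a truncated receptor is still made. One sciatic nerve was crushed, and the distal nerve was taken 2 or 4 weeks post crush (wpc) together with the contralateral nerve of the same mouse, which is called healthy although it comes from an operated animal.

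Healthy nerves at 2 wpc came from 5 *Lepr*-ctrl and 6 *Lepr*-cKO mice, and injured nerves from 5 in each genotype. At 4 wpc there were 5 healthy and 4 injured nerves per genotype. The mice of 2 wpc and 4 wpc were different animals, so a change over time is given only against the healthy nerves of the same cohort. Total counts ranged from 10905806 to 45016322 per library, and were lowest in injured nerves at 4 wpc, with medians of 14158795 (*Lepr*-ctrl) and 17552170.5 (*Lepr*-cKO). The samples of a group came from different mice, and the tests measure the spread between these mice. The counts cover the whole of *Lepr* and so do not read out the loss of exon 1. Between genotypes *Lepr* did not pass the test in any of the 4 comparisons, with log2 fold changes from -0.55 ± 0.33 in injured nerves at 4 wpc to 0.45 ± 0.31 in injured nerves at 2 wpc (SE).

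Libraries are named here as in the sample titles, where KO and WT stand for *Lepr*-cKO and *Lepr*-ctrl at 4 wpc, all names at 2 wpc begin with SLRKO2wpc in both genotypes, and c or i at the end marks a contralateral or injured nerve. The injured *Lepr*-cKO library SLRKO2wpc126i stood apart. The 20 skeletal muscle markers summed to 62100 CPM (counts relative to library size, scaled with TMM factors) there, with *Acta1* as the most abundant at 11200, whereas their sum was between 30.3 and 97.5 in the other 38 libraries. Its summed levels were 2960 CPM for the citric acid cycle genes and 1650 CPM for the fatty acid oxidation genes, and 31 of the 35 genes were higher in it than in all 4 other libraries of its group. The share of all genes that were higher in it is not given here, so this count does not show that the 35 genes stood out. *Cpt1b*, the muscle form of carnitine palmitoyltransferase 1, was at 2.77 CPM against 0.184 to 0.463 CPM. This library was left out of all values below unless it is named.

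**Figure D1:**
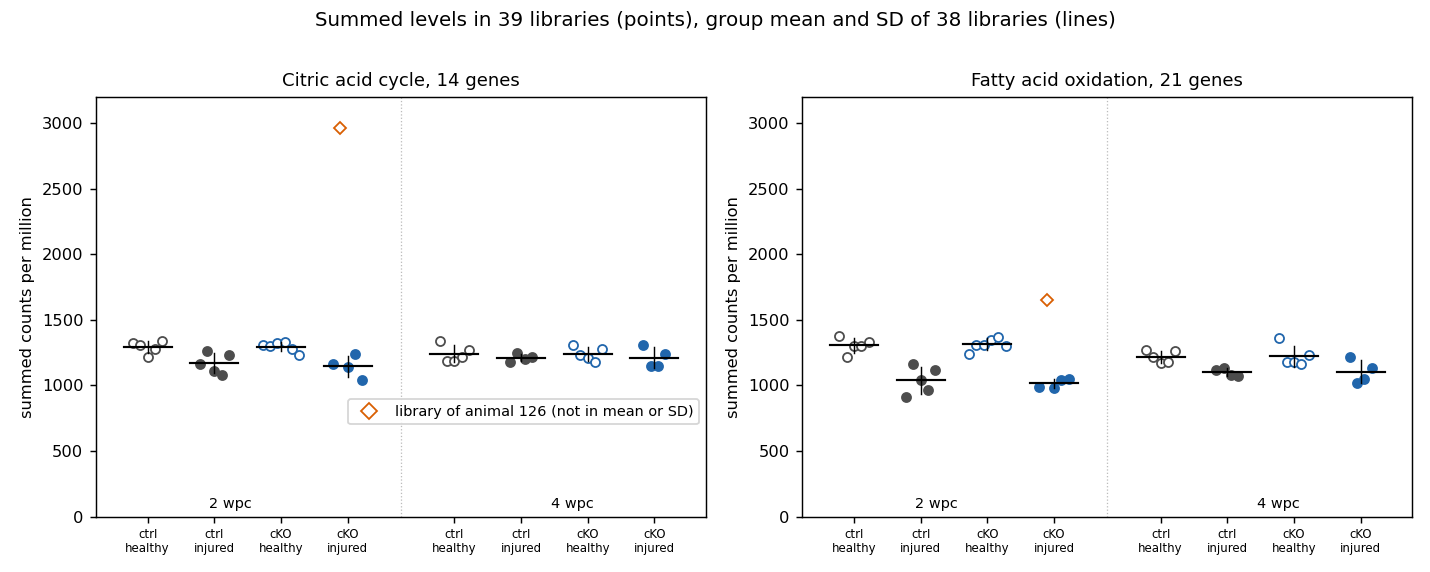
Summed CPM (vertical axis) of the 14 citric acid cycle genes (left) and the 21 fatty acid oxidation genes (right) in each of 39 libraries, by genotype, nerve and time, open for healthy and filled for injured nerves. Horizontal lines are group means and vertical lines SD over 38 libraries. Library SLRKO2wpc126i, a diamond at 2960 and 1650 CPM, lies above all others, and fatty acid oxidation genes at 2 wpc do not overlap between healthy and injured nerves.

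The promoter windows of 3 results below are shown here, from 250 bases before to 50 bases after the annotated start (RefSeq, GRCm38.p6). RefSeq gave a window for 30 of the 35 genes, several for *Ogdh*. *Hadha* and *Hadhb* encode the alpha and beta subunits of the trifunctional protein, a complex that carries out the last steps of long-chain oxidation. They are transcribed in opposite directions from start sites at 30154980 (minus strand) and 30155253 (plus strand) of chromosome 5, with 272 bases between them, so that 228 of 300 bases of the *Hadhb* window also belong to the *Hadha* window. It is shown because the counts of the subunits did not move together after crush (below), and the capitals mark the shared bases, chr5:30155003-30155230, in the window chr5:30155003-30155302 (plus strand).
Hadhb: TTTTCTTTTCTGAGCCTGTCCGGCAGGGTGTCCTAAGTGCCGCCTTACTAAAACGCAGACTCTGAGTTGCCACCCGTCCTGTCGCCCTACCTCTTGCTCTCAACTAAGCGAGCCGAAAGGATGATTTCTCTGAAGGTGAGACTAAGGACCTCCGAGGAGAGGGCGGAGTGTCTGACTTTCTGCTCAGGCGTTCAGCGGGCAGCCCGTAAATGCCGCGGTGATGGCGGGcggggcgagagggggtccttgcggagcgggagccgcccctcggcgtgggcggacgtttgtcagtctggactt
Of the motifs searched on both strands in all windows of this length, the NRF1 site was found in 1 of the 30 genes with a window (3.33%, against 1.07% of all genes with a window) and TGACGTCA (the cyclic AMP response element) in 2, *Ogdh* (in 3 of its 6 windows) and *Mdh2* (6.67% against 2.03%). TCAAGGTCA (a site of estrogen-related receptors) and the direct repeat read by PPAR and RXR were in none of the 30, and in 0.466% and 0.0481% of all genes. A match describes letters only. The next window, chr3:79628718-79629017 (minus strand), is that of *Etfdh*, which fell in all 4 comparisons of injured with healthy nerves, with the NRF1 letters in capitals.
Etfdh: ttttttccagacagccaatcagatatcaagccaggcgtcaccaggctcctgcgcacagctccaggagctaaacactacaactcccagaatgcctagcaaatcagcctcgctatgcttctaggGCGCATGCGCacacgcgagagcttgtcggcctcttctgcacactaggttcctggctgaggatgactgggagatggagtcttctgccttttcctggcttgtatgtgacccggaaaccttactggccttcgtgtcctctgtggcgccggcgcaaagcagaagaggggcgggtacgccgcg
*Ogdh*, whose windows are not shown, passed in none of the 4 comparisons of injured with healthy nerves (below), so the motif is not tied to a fall here. The last window, chr5:135778399-135778698 (plus strand), is that of *Mdh2*, the mitochondrial malate dehydrogenase, with the cyclic AMP response element in capitals.
Mdh2: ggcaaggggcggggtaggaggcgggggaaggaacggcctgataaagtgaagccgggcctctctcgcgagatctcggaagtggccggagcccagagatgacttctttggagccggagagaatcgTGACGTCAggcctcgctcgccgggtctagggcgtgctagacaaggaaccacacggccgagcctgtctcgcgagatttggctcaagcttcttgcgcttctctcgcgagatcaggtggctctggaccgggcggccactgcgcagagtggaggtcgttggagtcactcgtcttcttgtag

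At 2 wpc, most of the 35 genes were lower in the injured nerve. In *Lepr*-ctrl mice 20 fell and 5 rose (edgeR quasi-likelihood test, adjusted p under 0.05), where 30.7% of all genes tested fell and 35.1% rose. In *Lepr*-cKO mice 20 fell and 5 rose as well, against 29.6% and 35.4% of all genes, and the 20 that fell were the same genes in both genotypes. The 35 genes had median log2 fold changes of -0.32 (*Lepr*-ctrl) and -0.33 (*Lepr*-cKO), beside 0.09 and 0.08 over all genes. The changes were small, since an absolute log2 fold change of 1 was exceeded by 1 gene in either genotype, *Cpt1c* upward in *Lepr*-ctrl and *Acaa2* downward in *Lepr*-cKO mice, where 20.3% of all genes did so upward and 14.3% downward in both. In *Lepr*-ctrl nerves, 3 genes were higher and 11 lower without overlap between healthy and injured libraries (24.2% and 23.8% of all genes), and in *Lepr*-cKO nerves 4 and 17 (24.4% and 23.7%).

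At 4 wpc, fewer of the genes differed from healthy nerves. In *Lepr*-ctrl mice 14 were lower and 6 higher (32.3% and 32.7% of all genes), and in *Lepr*-cKO mice 9 were lower and 5 higher (27.1% and 30.2%). The medians were -0.07 and -0.12, beside 0.01 and 0.05 over all genes. Without overlap between libraries, 6 were higher and 11 lower in *Lepr*-ctrl (27.2% and 27.9% of all genes) and 4 higher and 3 lower in *Lepr*-cKO nerves (20.8% and 21.3%). The split in *Lepr*-ctrl mice at 4 wpc depended on the processing, with 9 lower and 9 higher when only genes with at least 10 counts in every library were used, and 8 lower and 7 higher with the animal as a block. Without libraries over 100 CPM of adipocyte markers, which left 2 injured and 3 healthy libraries, it was 8 lower and 2 higher. In *Lepr*-cKO mice the first of these settings and the block gave 6 lower and 6 higher, and 7 lower and 5 higher. Leaving out library KO-169Sni, in which transcripts of mitochondrial DNA took 2.95% of the counts (2.28% to 4.25% in healthy nerves of that group), raised the *Lepr*-cKO count to 19.

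**Figure D2:**
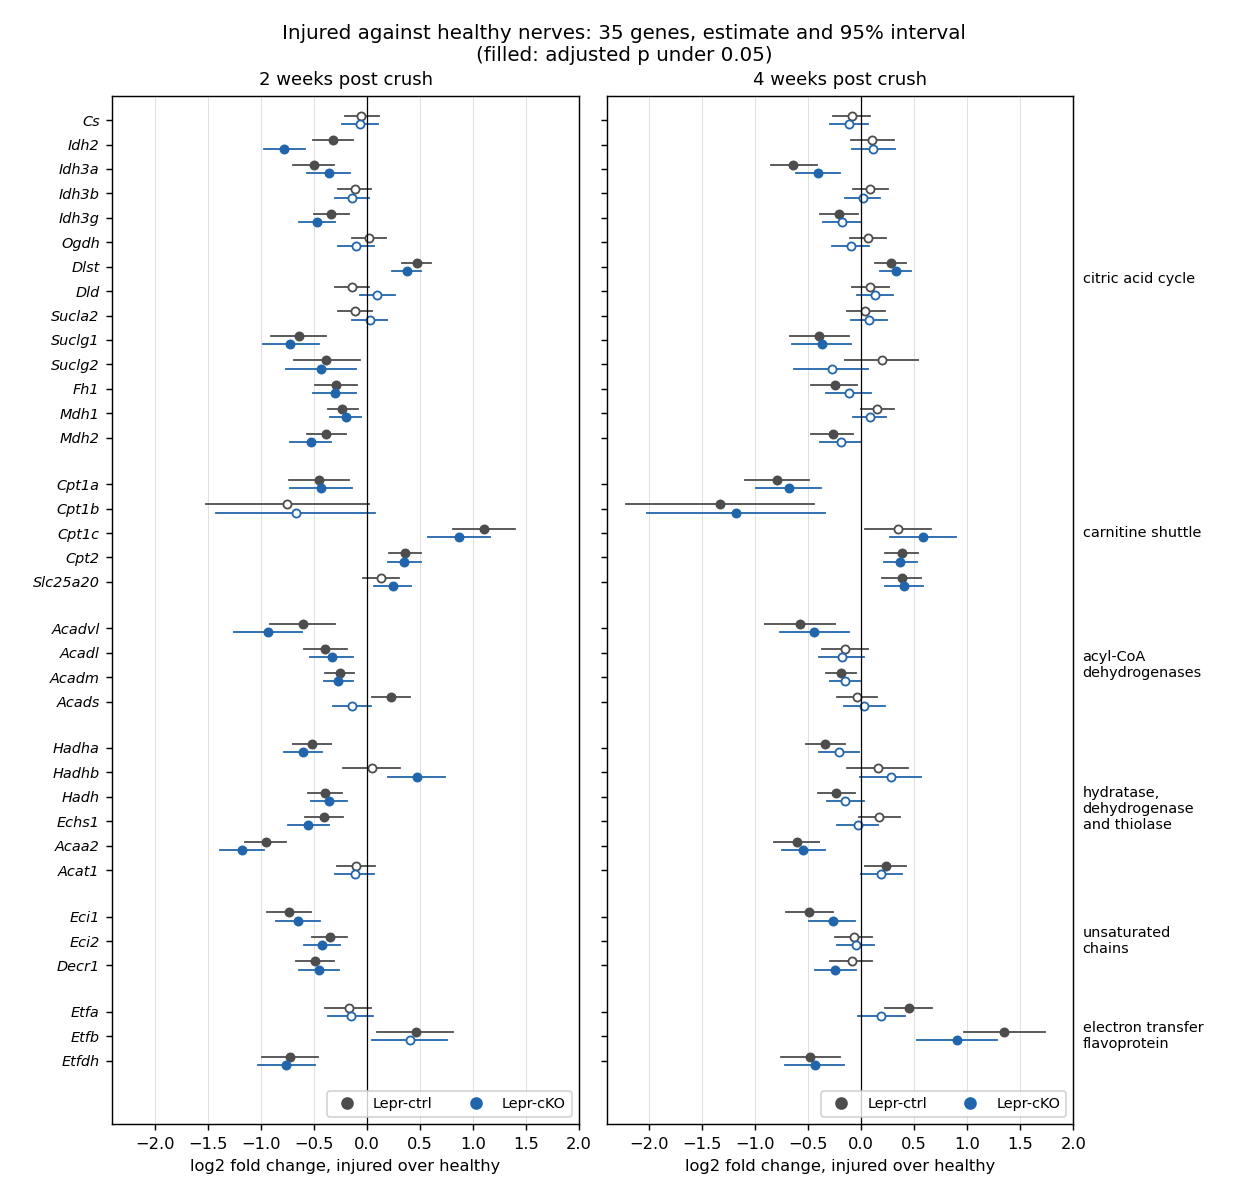
Log2 fold change of injured over healthy nerves (horizontal axis, with 95% interval) for the 35 genes at 2 wpc (left) and 4 wpc (right), in *Lepr*-ctrl (grey) and *Lepr*-cKO mice (blue), filled where the adjusted p was under 0.05. At 2 wpc 20 genes lie to the left of 0 as filled points in both genotypes, and *Cpt1c* has the largest positive value in each genotype.

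Marker transcripts of several cell types changed at the same time. The summed level of 10 macrophage markers rose from a median of 314 CPM to 2280 CPM in *Lepr*-ctrl and from 285 to 2230 CPM in *Lepr*-cKO nerves at 2 wpc, and from 358 to 4630 CPM and 251 to 2560 CPM at 4 wpc. Of these markers, 8, 7, 9 and 9 rose and 1 fell in each comparison. The 10 Schwann cell and myelin markers summed to medians of 101000 and 109000 CPM in healthy and to 37500 and 34200 CPM in injured nerves at 2 wpc, and of 105000 in both genotypes against 32100 (*Lepr*-ctrl) and 60400 CPM (*Lepr*-cKO) at 4 wpc. Transcripts encoded in mitochondrial DNA took medians of 2.05% to 2.42% of the counts in healthy groups and 11.2% to 21.1% in injured groups. In bulk tissue, fewer cells of a type and less RNA per cell cannot be told apart, and the part of these shifts in the results was not tested.

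In the citric acid cycle, subunits of the same enzyme had different calls. Of the 14 genes, 8 fell and 1 rose in each genotype at 2 wpc, where 30.7% (*Lepr*-ctrl) and 29.6% (*Lepr*-cKO) of all genes fell. At 4 wpc 5 fell and 1 rose in *Lepr*-ctrl mice and 2 fell and 1 rose in *Lepr*-cKO mice, where 32.3% and 27.1% of all genes fell, so that the counts at this time were near or below the share of all genes. *Cs*, which makes citrate, had estimates between -0.12 and -0.05 in the 4 comparisons, and none passed. The largest fall among these 14 genes at 2 wpc in *Lepr*-cKO mice was that of *Idh2*, the NADP-dependent mitochondrial isocitrate dehydrogenase.

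Healthy *Lepr*-cKO nerves at 2 wpc had 60.1 (lowest), 66.9 (median) and 71.6 CPM (highest) of *Idh2*, and the injured ones 37.5, 39.9, 43.6 and 34.5 CPM. Healthy *Lepr*-ctrl nerves had 62.2, 64.5, 53.1, 53.8 and 74.8 CPM, and injured ones 47.9, 50, 45.2, 47 and 56.4 CPM. The groups of *Lepr*-cKO mice did not overlap, and in *Lepr*-ctrl mice 1 injured library lay within the healthy range. *Idh2* fell by 0.78 ± 0.10 on the log2 scale in *Lepr*-cKO (SE, edgeR adjusted p = 4.83e-08) and by 0.32 ± 0.10 in *Lepr*-ctrl mice (adjusted p = 0.00432). At 4 wpc *Idh2* did not pass, with estimates of 0.10 and 0.11 (adjusted p = 0.392 and 0.355), and the healthy and injured libraries overlapped (50.8 to 69.7 and 58.9 to 68.8 CPM for *Lepr*-ctrl, 51.4 to 64.4 and 54.5 to 71.2 CPM for *Lepr*-cKO).

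The NAD-dependent isocitrate dehydrogenase is built from the products of *Idh3a*, *Idh3b* and *Idh3g*. *Idh3a*, its catalytic subunit, was at 81, 80.2, 74.8, 79 and 73.9 CPM in healthy and 52, 61.5, 47.1, 50.6 and 63.1 CPM in injured *Lepr*-ctrl nerves at 2 wpc. At 4 wpc the values were 68.7, 59.4, 64.5, 58.5 and 64.5 CPM in healthy and 39.7, 44.2, 43.8 and 34.5 CPM in injured nerves. All injured libraries were below all healthy ones at both times. *Idh3a* fell in all 4 comparisons (log2 fold changes of -0.50, -0.36, -0.64 and -0.41 for *Lepr*-ctrl and *Lepr*-cKO at 2 wpc and then at 4 wpc; edgeR adjusted p from 5.44e-06 to 0.00283), and *Idh3g* in 3 of them (-0.34, -0.47 and -0.21, and -0.18 with adjusted p = 0.0872 in *Lepr*-cKO at 4 wpc), the third of which missed the threshold with the animal as a block (adjusted p = 0.0923). *Idh3b* passed in none, with estimates from -0.14 to 0.08.

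The 2-oxoglutarate dehydrogenase complex consists of *Ogdh*, *Dlst* and *Dld* products, and its *Dlst* component (the succinyltransferase) was the only cycle gene that rose. *Dlst* was at 106.2, 107.2, 96.7, 103.4 and 106.7 CPM in healthy and 174.3, 138.9, 131.6, 148 and 127.5 CPM in injured *Lepr*-ctrl nerves at 2 wpc. The *Lepr*-cKO values were 98.6 (lowest), 104 (median) and 106.6 CPM (highest) in healthy and 133.3, 143.3, 138.5 and 124.8 CPM in injured nerves. Neither pair of groups overlapped, and the same held at 4 wpc. The log2 fold changes were 0.47, 0.38, 0.28 and 0.33 in the order above (edgeR adjusted p from 4.18e-07 to 0.00133). *Ogdh*, the oxoglutarate-decarboxylating component, and *Dld*, shared with the pyruvate dehydrogenase complex, passed in none, with estimates from -0.10 to 0.06 and from -0.14 to 0.13.

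Succinate-CoA ligase pairs the alpha subunit *Suclg1* with an ATP-forming (*Sucla2*) or a GTP-forming (*Suclg2*) beta subunit. *Suclg1* was at 57.6, 54.7, 51.2, 52.8 and 56.7 CPM in healthy and 26.4, 39.6, 38.7, 30.4 and 40.2 CPM in injured *Lepr*-ctrl nerves at 2 wpc. *Sucla2* was at 85.9, 76.9, 79.7, 87.1 and 70.8 CPM in the same healthy and 64.3, 88, 73.7, 65.7 and 79.4 CPM in the same injured nerves. *Suclg1* separated the groups, and *Sucla2* did not. *Suclg1* fell by 0.64 ± 0.13 and 0.72 ± 0.14 at 2 wpc and by 0.40 ± 0.14 and 0.37 ± 0.14 at 4 wpc on the log2 scale (*Lepr*-ctrl and *Lepr*-cKO; edgeR adjusted p = 7.81e-05, 2.72e-05, 0.0144 and 0.0229). At 4 wpc its call was lost without either of 2 *Lepr*-ctrl libraries (WT-170Sni and WT-178Sni) and without any of 3 *Lepr*-cKO libraries (KO-169Snc, KO-175Sni and KO-176Sni) or with only the groups compared fitted. With the animal as a block, the *Lepr*-ctrl call of *Suclg1* at 4 wpc was lost (adjusted p = 0.0524). *Sucla2* passed in none, with estimates from -0.11 to 0.07. *Suclg2* fell at 2 wpc by 0.38 and 0.43 (adjusted p = 0.0421 and 0.0254), calls that were lost without any of 5 single libraries in *Lepr*-ctrl (SLRKO2wpc120c, SLRKO2wpc130c, SLRKO2wpc131c, SLRKO2wpc123i and SLRKO2wpc147i) and any of 3 in *Lepr*-cKO mice (SLRKO2wpc125i, SLRKO2wpc128i and SLRKO2wpc138i). The *Lepr*-ctrl call was also lost with no expression filter, with at least 10 counts in every library and with only the groups compared fitted. Of its stretches of 50 bases, 16% also occur in a processed pseudogene.

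Per kilobase of exon, *Sucla2* was at 20 CPM and *Suclg2* at 2.81 CPM in healthy *Lepr*-ctrl nerves at 2 wpc (medians over 5 libraries). The median of the ratios within each library was 7.23 ± 0.32 (SD, n = 5), and 9.42 when the length of the longest transcript was used. Across the 35 genes, the highest levels per kilobase in these nerves were those of *Acaa2* (69.5), *Acadl* (57.3), *Mdh1* (52.2) and *Mdh2* (42.6), and the lowest those of *Cpt1b* (0.119) and *Hadhb* (2.65). With the length of the longest transcript *Mdh2* came first (94.5, then *Acaa2* 69.5, *Mdh1* 63.1 and *Acadl* 59.9), and *Suclg2* (3.86) lay below *Hadhb* (3.99). The remaining cycle genes, *Fh1* (fumarase), *Mdh1* (the cytosolic malate dehydrogenase) and *Mdh2*, fell in both genotypes at 2 wpc, by 0.20 to 0.53 on the log2 scale. *Mdh1* passed at 2 wpc with adjusted p = 0.00717 and 0.0204, and missed the threshold with the animal as a block (adjusted p = 0.0587 and 0.0673). At 4 wpc, *Fh1* and *Mdh2* were lower in *Lepr*-ctrl mice (-0.25 and -0.27, adjusted p = 0.0429 and 0.017), and with the block neither passed (0.206 and 0.0826).

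Among the genes listed for the carnitine shuttle, members moved in opposite directions. The list includes 3 related genes, *Cpt1a*, *Cpt1b* and *Cpt1c*. *Cpt1a* encodes the widely expressed form of the outer membrane enzyme, and *Cpt1b* its muscle form. *Cpt1c* encodes a form best known from neurons, with little transferase activity. Its part in the shuttle was not tested. Neither its counts nor their ratio to *Cpt1a* (below) are therefore read as a change in fatty acid entry. In *Lepr*-ctrl mice at 2 wpc, *Cpt1c* was at 22.8, 24.9, 21.5, 23.2 and 29.3 CPM in healthy and 63.9, 37.1, 57.4, 68.1 and 35.6 CPM in injured nerves. *Cpt1a* was at 144.5, 104.3, 139, 128.5 and 108.8 CPM in healthy and 80.6, 121.4, 72.6, 73.6 and 108.5 CPM in injured nerves. Injured nerves were above all healthy ones for *Cpt1c*, while 2 injured libraries lay within the healthy range for *Cpt1a*.

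At 2 wpc *Cpt1c* rose by 1.11 ± 0.15 (*Lepr*-ctrl, edgeR adjusted p = 9.46e-08) and 0.87 ± 0.15 (*Lepr*-cKO, 5.98e-06) on the log2 scale, and at 4 wpc by 0.58 ± 0.16 in *Lepr*-cKO nerves (0.00218). In *Lepr*-ctrl mice at 4 wpc its estimate was 0.35 ± 0.16 (adjusted p = 0.0526, and 0.0161 with the animal as a block), with 29.4, 29.3, 24.3, 28.6 and 25.8 CPM in healthy and 39, 33.6, 38.2 and 29.5 CPM in injured nerves. *Cpt1a* fell by 0.45 and 0.43 at 2 wpc and by 0.79 and 0.68 at 4 wpc (adjusted p = 0.00608, 0.0107, 3.61e-05 and 3e-04), and at 4 wpc neither genotype's groups overlapped. The ratio of *Cpt1c* to *Cpt1a* counts within a library, which does not depend on library scaling and was chosen after the values were seen, had medians of 0.18 in healthy and 0.791 in injured *Lepr*-ctrl nerves at 2 wpc, and 0.195 and 0.565 in *Lepr*-cKO nerves. At 4 wpc these medians were 0.214 and 0.49, and 0.226 and 0.574. *Cpt1b* was at or below 0.97 CPM in all 38 libraries and was lower at 4 wpc by 1.33 ± 0.45 and 1.18 ± 0.43 (adjusted p = 0.0103 and 0.0193), but 81.4% of its exon bases lie in the overlapping gene *Gm44502*, the calls were lost without WT-173Sni in *Lepr*-ctrl or KO-169Sni in *Lepr*-cKO mice, and with the animal as a block (adjusted p = 0.0525) or only the groups compared fitted the *Lepr*-cKO call was lost.

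The genes of the inner membrane part of the shuttle rose. *Cpt2*, which returns the acyl group to CoA in the matrix, was at 16.5, 18.6, 17, 15.3 and 18.2 CPM in healthy and 23.9, 23.6, 20.2, 21.1 and 21.2 CPM in injured *Lepr*-ctrl nerves at 2 wpc. The groups did not overlap in this or in the other 3 comparisons, in which *Cpt2* rose by 0.35 to 0.38 on the log2 scale (edgeR adjusted p from 0.000116 to 0.000269 over the 4). *Slc25a20*, the carrier that exchanges acylcarnitine for carnitine, was at 22.4, 21.9, 21, 21.5 and 23.5 CPM in healthy and 27.9, 29.5, 28 and 29.1 CPM in injured *Lepr*-ctrl nerves at 4 wpc. It rose at 4 wpc in both genotypes (0.38 and 0.40, adjusted p = 0.000628 and 0.000348) and at 2 wpc in *Lepr*-cKO mice (0.25, adjusted p = 0.0142, lost without SLRKO2wpc138i or with no expression filter), with an estimate of 0.13 in *Lepr*-ctrl mice (adjusted p = 0.17).

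**Figure D3:**
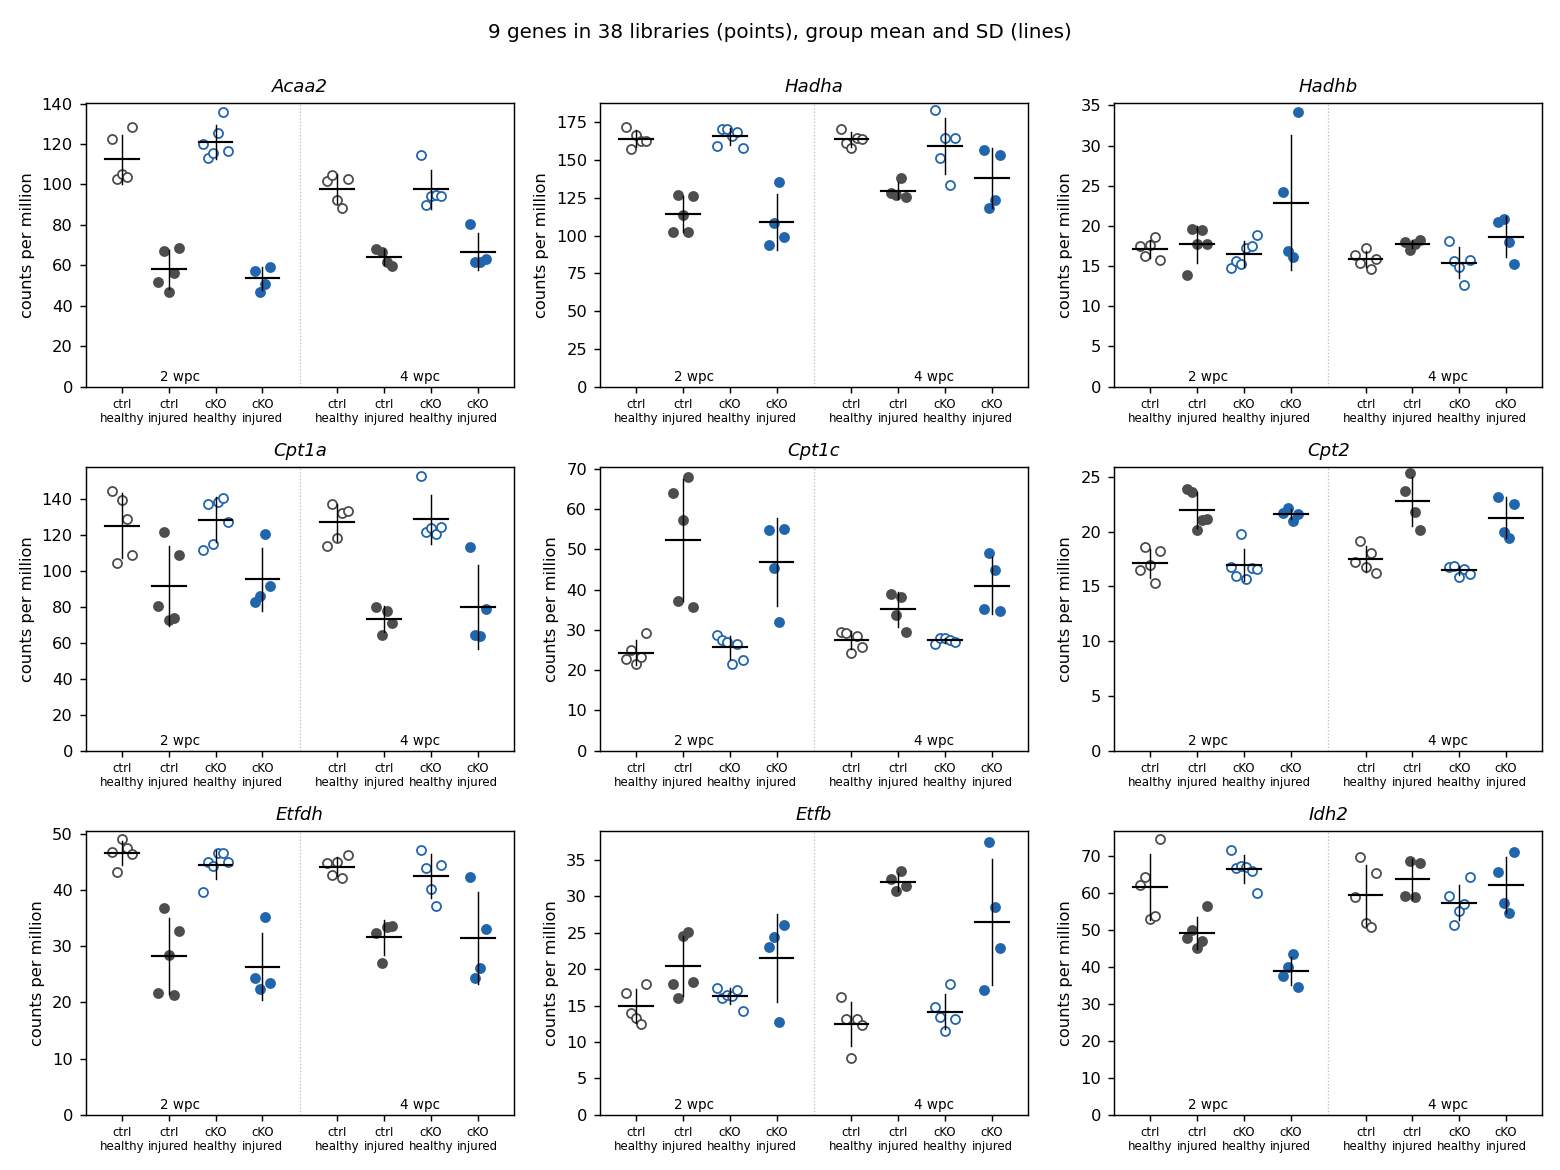
CPM (vertical axis, from 0) of 9 of the genes in each of 38 libraries by genotype, nerve and time, open for healthy and filled for injured nerves, with group means (horizontal lines) and SD (vertical lines). *Acaa2* lies lower and *Cpt1c* and *Cpt2* higher in all injured libraries than in the healthy libraries of the same genotype and time.

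Of the enzymes of the oxidation spiral, 3 of 4 acyl-CoA dehydrogenases, 4 of 6 genes of the hydratase, hydroxyacyl-CoA dehydrogenase and thiolase steps and 3 of 3 genes for unsaturated chains fell at 2 wpc in each genotype, where 30.7% (*Lepr*-ctrl) and 29.6% (*Lepr*-cKO) of all genes fell. The acyl-CoA dehydrogenases, which act on very long (*Acadvl*), long (*Acadl*), medium (*Acadm*) and short chains (*Acads*), included 3 that fell (*Acadl* by 0.39 and 0.33, *Acadm* by 0.25 and 0.27), and *Acads* rose in *Lepr*-ctrl mice (0.23 ± 0.09, edgeR adjusted p = 0.0269), with an estimate of -0.14 ± 0.09 in *Lepr*-cKO mice (adjusted p = 0.189). *Acadvl* was at 33.3, 34.3, 31.6, 35.2 and 33.3 CPM in healthy and 19.2, 27.5, 19.2, 15.9 and 28.2 CPM in injured *Lepr*-ctrl nerves. The *Lepr*-cKO values were 32.6 (lowest), 35.6 (median) and 37.6 CPM (highest) in healthy and 15.8, 18, 27.5 and 13.1 CPM in injured nerves. All injured values were below the healthy ones, and the log2 fold changes were -0.60 ± 0.16 and -0.93 ± 0.16 (adjusted p = 0.00103 and 7.56e-06). *Acadvl* was also lower at 4 wpc (-0.58 and -0.45, adjusted p = 0.00328 and 0.0221), where the *Lepr*-cKO call was lost without any of 3 libraries (KO-169Snc, KO-175Sni and KO-176Sni) or with only the groups compared fitted. Of its exon bases 42.9% overlap *Dvl2*, and since the library kit keeps no strand, reads in that stretch cannot be assigned to either gene. The isomerases and the reductase that handle unsaturated chains, *Eci1*, *Eci2* and *Decr1*, fell in both genotypes at 2 wpc, by 0.35 to 0.73 on the log2 scale. At 4 wpc *Eci1* was lower in both (-0.49 and -0.27, adjusted p = 0.000271 and 0.0342, the second lost with the animal as a block, 0.0954), and *Decr1* in *Lepr*-cKO mice (-0.25, adjusted p = 0.0326).

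*Acaa2*, the thiolase that releases acetyl-CoA, had the largest fall at 2 wpc in both genotypes. It was at 122.3, 102.5, 105.4, 103.8 and 128.5 CPM in healthy and 51.6, 67.3, 46.7, 56.3 and 68.5 CPM in injured *Lepr*-ctrl nerves, and in *Lepr*-cKO mice at 113 (lowest), 118 (median) and 135.8 CPM (highest) and at 57.2, 46.8, 51 and 59.4 CPM. At 4 wpc it was at 101.7, 104.5, 92.4, 88.3 and 102.6 CPM against 68.1, 66.6, 61.6 and 59.8 CPM in *Lepr*-ctrl nerves, and at 114.5, 89.8, 94.5, 94.9 and 94.2 CPM against 80.6, 61.7, 61.8 and 63.1 CPM in *Lepr*-cKO nerves. The groups overlapped in none of the 4 comparisons, with log2 fold changes of -0.95 ± 0.10, -1.18 ± 0.10, -0.61 ± 0.11 and -0.55 ± 0.11 (edgeR adjusted p = 3.73e-10, 1.05e-11, 6.45e-06 and 4.71e-05). *Acat1*, the thiolase of acetoacetyl-CoA, had an estimate of -0.10 and -0.11 at 2 wpc and was higher in *Lepr*-ctrl mice at 4 wpc (0.23, adjusted p = 0.0343). *Echs1*, the short-chain hydratase, fell by 0.40 and 0.55 at 2 wpc, and *Hadh*, the short-chain hydroxyacyl-CoA dehydrogenase, by 0.39 and 0.36. *Hadh* and *Acadm* were also lower in *Lepr*-ctrl mice at 4 wpc (-0.24 and -0.19, edgeR adjusted p = 0.0193 and 0.0228), and neither passed with the animal as a block (0.104 and 0.0945).

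The subunits of the trifunctional protein differed. *Hadha* was at 171.9, 157, 166.2, 162.8 and 162.5 CPM in healthy and 102.5, 126.6, 113.9, 102.4 and 126.2 CPM in injured *Lepr*-ctrl nerves at 2 wpc, without overlap. *Hadhb* was at 17.5, 16.2, 17.6, 18.6 and 15.8 CPM and at 13.9, 19.6, 17.7, 19.5 and 17.8 CPM in the same nerves, with overlapping groups. *Hadha* fell by 0.52 and 0.60 on the log2 scale at 2 wpc and by 0.34 in *Lepr*-ctrl mice at 4 wpc (edgeR adjusted p = 6.1e-06, 1.04e-06 and 0.00274), with -0.21 in *Lepr*-cKO mice (adjusted p = 0.0623). *Hadhb* rose in *Lepr*-cKO mice at 2 wpc (0.47 ± 0.14, adjusted p = 0.0032), where injured nerves had 24.2, 16.9, 16.1 and 34.2 CPM, and this call was lost without SLRKO2wpc138i. Its other estimates were 0.05, 0.16 and 0.28 and did not pass. The ratio of *Hadha* to *Hadhb* counts within a library, also chosen after the values were seen, fell from a median of 9.72 (8.73 to 10.3) to 6.45 (5.26 to 7.39) in *Lepr*-ctrl nerves at 2 wpc and from 10.4 (9.19 to 11.3) to 7.29 (6.9 to 7.81) at 4 wpc, and in *Lepr*-cKO nerves the ranges overlapped (10.3 to 5.13 and 10.4 to 7.24). Of the stretches of 50 bases in *Hadhb*, 19.7% also occur in other genes, mainly the processed pseudogenes *Gm13910* and *Gm9108*, so that its level depends on how reads with several alignments were counted, which is not stated for these files.

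The electron transfer flavoprotein (*Etfa* and *Etfb*) and its ubiquinone oxidoreductase (*Etfdh*) link these dehydrogenases to the respiratory chain. *Etfb* was at 16.2, 13.1, 7.81, 13.2 and 12.3 CPM in healthy and 32.4, 30.7, 33.5 and 31.4 CPM in injured *Lepr*-ctrl nerves at 4 wpc, and at 14.8, 13.4, 11.5, 18 and 13.1 CPM and 17.1, 37.5, 28.5 and 22.9 CPM in *Lepr*-cKO nerves. The *Lepr*-ctrl groups were far apart, and 1 injured *Lepr*-cKO library lay within the healthy range. *Etfb* rose by 1.35 ± 0.19 and 0.90 ± 0.19 at 4 wpc on the log2 scale (edgeR adjusted p = 2.7e-07 and 0.000167), and by 0.46 ± 0.18 in *Lepr*-ctrl mice at 2 wpc (0.0275), a call that was lost with the animal as a block (0.0851) and without any of 5 single libraries (SLRKO2wpc123c, SLRKO2wpc130c, SLRKO2wpc131c, SLRKO2wpc144i and SLRKO2wpc147i). In *Lepr*-cKO mice at 2 wpc its estimate was 0.41 (adjusted p = 0.0515). Of the exon bases of *Etfb* 58.2% are shared with *Gm45233* and *Mir7051*, and 44.8% of its stretches of 50 bases also occur in other genes. Its counts thus depend on how reads in the shared bases were assigned, which is not stated for these files. *Etfa* was higher in *Lepr*-ctrl mice at 4 wpc (0.45 ± 0.11, adjusted p = 0.000983), at 45, 56.5, 45.3 and 44.3 CPM against 41.5, 33.5, 32.5, 31.8 and 36.2 CPM in healthy nerves.

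*Etfdh*, in contrast, was at 46.9, 43.2, 49.1, 47.6 and 46.5 CPM in healthy and 21.7, 36.9, 28.4, 21.4 and 32.8 CPM in injured *Lepr*-ctrl nerves at 2 wpc. At 4 wpc it was at 44.8, 42.8, 45, 42.2 and 46.2 CPM and at 32.3, 27, 33.5 and 33.6 CPM. Injured nerves were below all healthy ones at both times. It fell by 0.72 ± 0.13 and 0.76 ± 0.14 at 2 wpc and by 0.48 ± 0.14 and 0.44 ± 0.14 at 4 wpc (*Lepr*-ctrl and *Lepr*-cKO, edgeR adjusted p = 1.64e-05, 1.46e-05, 0.00379 and 0.00919), and the last of these calls was lost without KO-175Sni.

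The injury response changed between 2 and 4 wpc for 7 of the genes in at least 1 genotype. In *Lepr*-ctrl mice, 5 genes had a higher response at 4 than at 2 wpc and 1 a lower one (4.4% and 6.22% of all genes), and in *Lepr*-cKO mice 3 were higher and 0 lower (2.36% and 1.03%). The difference of the log2 responses was 0.43 (*Lepr*-ctrl) and 0.89 (*Lepr*-cKO) for *Idh2*, with edgeR adjusted p = 0.0487 and 0.000339, and 0.57 and 0.52 for *Echs1* (0.00602 and 0.0279). *Acaa2* differed in *Lepr*-cKO mice (0.63, adjusted p = 0.0107). *Mdh1* (0.38), *Etfa* (0.62) and *Etfb* (0.89) had higher responses and *Cpt1c* (-0.76) a lower one in *Lepr*-ctrl mice (edgeR adjusted p = 0.0194, 0.00927, 0.0262 and 0.0229). Such a difference can also come from the healthy nerves of the 2 cohorts. Median *Etfa* was 46.3 CPM in healthy and 45.7 CPM in injured *Lepr*-ctrl nerves at 2 wpc, and 33.5 and 45.2 CPM at 4 wpc. For *Mdh1* these medians were 134 and 105 CPM, then 104 and 121 CPM. For *Etfb* they were 14 and 18.2 CPM, then 13.1 and 31.9 CPM. For *Idh2* in *Lepr*-ctrl mice the call was lost without any of 11 single libraries, with the block (adjusted p = 0.12), with mitochondrially encoded genes left out of normalization, with no expression filter and with only the groups compared fitted. *Mdh1* was lost with the block (0.0574), *Etfb* without WT-171Snc, *Cpt1c* without WT-178Sni, SLRKO2wpc123i or SLRKO2wpc147i, and *Echs1* in *Lepr*-cKO mice without KO-177Snc, KO-177Sni or SLRKO2wpc135i or with no expression filter. *Suclg2*, *Cpt1a* and *Decr1* did not pass in *Lepr*-ctrl mice in the main fit of 38 libraries, and passed with the block (edgeR adjusted p = 0.0309, 0.0339 and 0.029). When libraries over 100 CPM of adipocyte markers were left out, which left 2 injured and 3 healthy *Lepr*-ctrl libraries at 4 wpc and 3 of each at 2 wpc, the *Lepr*-ctrl calls of *Idh2* (edgeR adjusted p = 0.0613), *Echs1* (0.207) and *Etfb* (0.293) were lost. This setting left 1 injured *Lepr*-cKO library at 4 wpc, too few to judge the *Lepr*-cKO calls. Over all settings run, the *Lepr*-ctrl differences ranged from 0.35 to 0.52 (*Idh2*), 0.47 to 0.71 (*Echs1*) and 0.73 to 1.09 (*Etfb*).

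Between *Lepr*-cKO and *Lepr*-ctrl mice, none of the 35 genes passed the test in injured or healthy nerves at either time. None passed for the difference of the injury responses between genotypes either, which does not show that the responses were equal. Of all genes tested, 0.00544% passed in injured nerves at 2 wpc, 1.79% in injured nerves at 4 wpc, 0.0109% and 0.00544% in healthy nerves at 2 and 4 wpc, and 0% for the difference of the injury responses at both times. DESeq2 called 0 of the 35 in each of these 6 comparisons as well. At an unadjusted p under 0.05, 4 and 3 of the genes in injured nerves at 2 and 4 wpc, 0 and 0 in healthy nerves, and 4 and 0 for the difference of the responses were counted, where 5.1%, 21.2%, 1.37%, 2.1%, 4.21% and 11.8% of all genes were.

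The smallest p in injured nerves at 2 wpc was that of *Idh2*, whose injured *Lepr*-cKO values (34.5 to 43.6 CPM) were all below the *Lepr*-ctrl ones (45.2 to 56.4 CPM), a log2 difference of -0.34 with a 95% interval from -0.55 to -0.14 (edgeR adjusted p = 0.902). It was the only 1 of the 35 genes without overlap there, where 0.256% of all genes were higher and 0.332% lower without overlap. In injured nerves at 4 wpc it was *Suclg2*, at 9.54, 8.88, 9.39 and 12.9 CPM in *Lepr*-cKO and 14.5, 15.8, 11.6 and 15.6 CPM in *Lepr*-ctrl nerves (-0.50, interval -0.86 to -0.14, edgeR adjusted p = 0.117). Without library KO-177Sni, which held the highest of these *Lepr*-cKO values, *Suclg2* (-0.63, adjusted p = 0.0304) and *Echs1* (-0.33, adjusted p = 0.0396) were lower in *Lepr*-cKO nerves. In healthy nerves the smallest p was that of *Dld* at 2 wpc (-0.11) and of *Cpt2* at 4 wpc (-0.09), each with an edgeR adjusted p of 1. For *Cs*, the 95% intervals of the genotype difference of *Lepr*-cKO against *Lepr*-ctrl nerves stayed between -0.21 and 0.17 in all 4 comparisons.

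**Figure D4:**
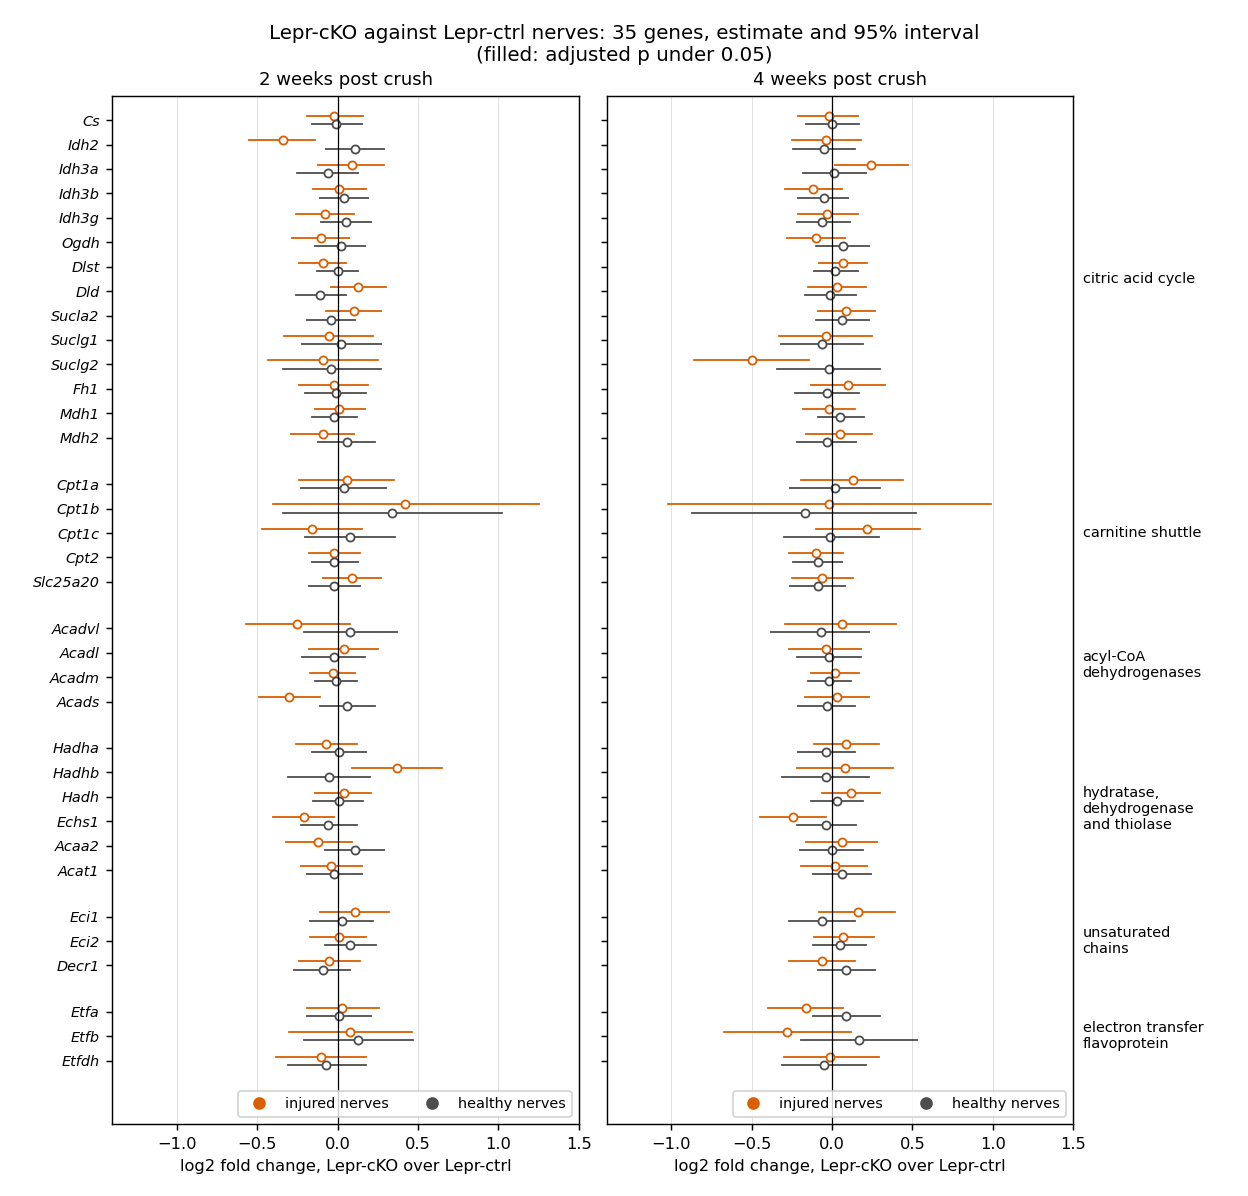
Log2 fold change of *Lepr*-cKO over *Lepr*-ctrl nerves (horizontal axis, with 95% interval) for the 35 genes at 2 wpc (left) and 4 wpc (right), in injured (orange) and healthy nerves (grey). No point is filled, since no adjusted p was under 0.05, and the widest intervals are those of *Cpt1b*.

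Other genes around the pathways, from lists of their neighbours, included larger changes. The counts of these lists in *Lepr*-ctrl mice stand beside 30.7% of all genes that fell and 35.1% that rose at 2 wpc, and 32.3% and 32.7% at 4 wpc. Of 19 further cycle and anaplerotic genes, 11 fell and 5 rose in *Lepr*-ctrl mice at 2 wpc, and 9 fell and 6 rose at 4 wpc. *Me1*, the cytosolic malic enzyme that supplies NADPH to lipid synthesis, fell from a median of 160 to 26.1 CPM at 2 wpc (log2 fold change -2.77 ± 0.14, edgeR adjusted p = 1.39e-17), and *Pcx*, pyruvate carboxylase, by 2.30 ± 0.19. *Sdhd*, a membrane anchor of succinate dehydrogenase, rose by 0.72 ± 0.08 and *Got1*, the cytosolic aspartate aminotransferase, by 0.58 ± 0.11. Of 13 genes of pyruvate entry, 7 fell and 2 rose at 2 wpc, led by *Pdk4*, a kinase that inhibits pyruvate dehydrogenase, from a median of 48.6 to 7.04 CPM (-2.55 ± 0.33, adjusted p = 3.05e-08).

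Of 18 genes of fatty acid uptake and activation, 8 fell and 9 rose in *Lepr*-ctrl mice at 2 wpc, and 9 fell and 5 rose in *Lepr*-cKO mice (29.6% and 35.4% of all genes). The ligases *Acss2* (-2.25 ± 0.15) and *Acsl1* (-1.53 ± 0.16) fell, and the carriers *Fabp4* (7.39 ± 1.28) and *Fabp5* (1.85 ± 0.25) rose. *Fabp4* is abundant in adipocytes and macrophages, and its estimate in *Lepr*-cKO mice was 1.19 ± 0.88 (adjusted p = 0.239). The summed level of 10 adipocyte markers exceeded 100 CPM in 2 of 5 injured *Lepr*-ctrl nerves at 2 wpc (180 and 287 CPM), and 7 of these markers rose there, but sums over 100 CPM also occurred in healthy nerves, with a median of 149 CPM in healthy *Lepr*-cKO nerves at 2 wpc. In injured nerves at 4 wpc the highest sums were 302 CPM in *Lepr*-ctrl and 339 CPM in *Lepr*-cKO mice. The part of adipocyte RNA in these results was not tested. Without libraries over 100 CPM of adipocyte markers, 24 of the 35 genes fell and 5 rose in *Lepr*-ctrl mice at 2 wpc, and 15 fell and 2 rose in *Lepr*-cKO mice, where 10903 and 9075 of 19575 genes passed. Calls lost there included those of *Idh3a* and *Suclg2* (edgeR adjusted p = 0.198 for the latter), *Cpt2* (0.0903), *Slc25a20* (0.317) and *Hadhb* (0.206) in *Lepr*-cKO mice at 2 wpc, and of *Dlst* (0.0617), *Cpt2* (0.0884), *Etfa* (0.0863) and *Etfdh* (0.0646) in *Lepr*-ctrl mice at 4 wpc. That *Dlst* call was also lost with no expression filter. Over all settings run, the log2 fold changes of these *Lepr*-ctrl genes at 4 wpc ranged from 0.23 to 0.33 (*Dlst*), 0.26 to 0.43 (*Cpt2*), 0.34 to 0.52 (*Etfa*) and -0.53 to -0.4 (*Etfdh*). Those of the *Lepr*-cKO genes at 2 wpc ranged from -0.5 to 0.42 (*Idh3a*), -0.61 to -0.18 (*Suclg2*), 0.26 to 0.63 (*Cpt2*), 0.17 to 0.35 (*Slc25a20*) and 0.21 to 0.6 (*Hadhb*). At 4 wpc only 1 injured *Lepr*-cKO library was left.

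Of 11 other mitochondrial oxidation genes, 7 fell and 1 rose in *Lepr*-ctrl mice at 2 wpc, and *Acadsb*, the short/branched-chain acyl-CoA dehydrogenase, fell from a median of 111 to 39.1 CPM (-1.30 ± 0.10, edgeR adjusted p = 2.29e-13). Of 13 peroxisomal genes tested, 7 fell and 3 rose, with *Ehhadh*, the peroxisomal bifunctional enzyme, falling by 1.76 ± 0.12. Among 5 genes of ketone body metabolism, *Bdh1*, the mitochondrial hydroxybutyrate dehydrogenase, rose by 1.41 ± 0.26. Of 19 regulators tested, 9 rose and 3 fell. *Ppara*, the receptor that drives oxidation genes in liver, fell from a median of 4.39 to 0.369 CPM (-3.52 ± 0.45, adjusted p = 2.68e-08), and *Pparg*, its relative in adipocytes and macrophages, rose from 0.974 to 5.07 CPM (3.34 ± 0.51, adjusted p = 7.48e-07). *Ppara* was lower in all 4 comparisons of injured with healthy nerves, and *Pparg* higher. No gene of these 7 lists passed in a comparison between genotypes.

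Among the 70 nuclear genes of respiratory chain subunits, more rose than fell after crush. In *Lepr*-ctrl mice 35 rose and 9 fell at 2 wpc (median log2 fold change 0.25), where 35.1% and 30.7% of all genes did, and 52 rose and 4 fell at 4 wpc (0.55), where 32.7% and 32.3% did. In *Lepr*-cKO mice 33 rose and 9 fell at 2 wpc (0.22), beside 35.4% and 29.6% of all genes, and 47 rose and 3 fell at 4 wpc (0.41), beside 30.2% and 27.1%. The 14 citric acid cycle genes had medians of -0.26, -0.25, 0.05 and -0.11 and the 21 fatty acid oxidation genes of -0.39, -0.36, -0.09 and -0.15 in the order *Lepr*-ctrl and *Lepr*-cKO at 2 wpc, then at 4 wpc. Of 17 glycolysis genes, 7 fell and 5 rose in *Lepr*-ctrl mice at 2 wpc. Of 20 genes of fatty acid and cholesterol synthesis, 17 fell in each of the 4 comparisons, with medians from -2.18 to -1.51. Between genotypes in injured nerves at 4 wpc, 6 of these synthesis genes were higher and 0 lower in *Lepr*-cKO nerves, where 1.79% of all genes passed in either direction. None of these calls held in edgeR when only the groups compared were fitted, since 0 of 15478 genes passed there. *Gpnmb*, a macrophage marker, and *Gap43*, a marker of repair Schwann cells, were lower in the same comparison (-1.11 and -0.80, edgeR adjusted p = 0.045 and 0.0441), the myelin markers summed to medians of 60400 CPM in *Lepr*-cKO against 32100 CPM in *Lepr*-ctrl nerves and the macrophage markers to 2560 against 4630 CPM, and their part in the result was not tested. These are counts of each list, and the difference between lists was not tested.

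**Figure D5:**
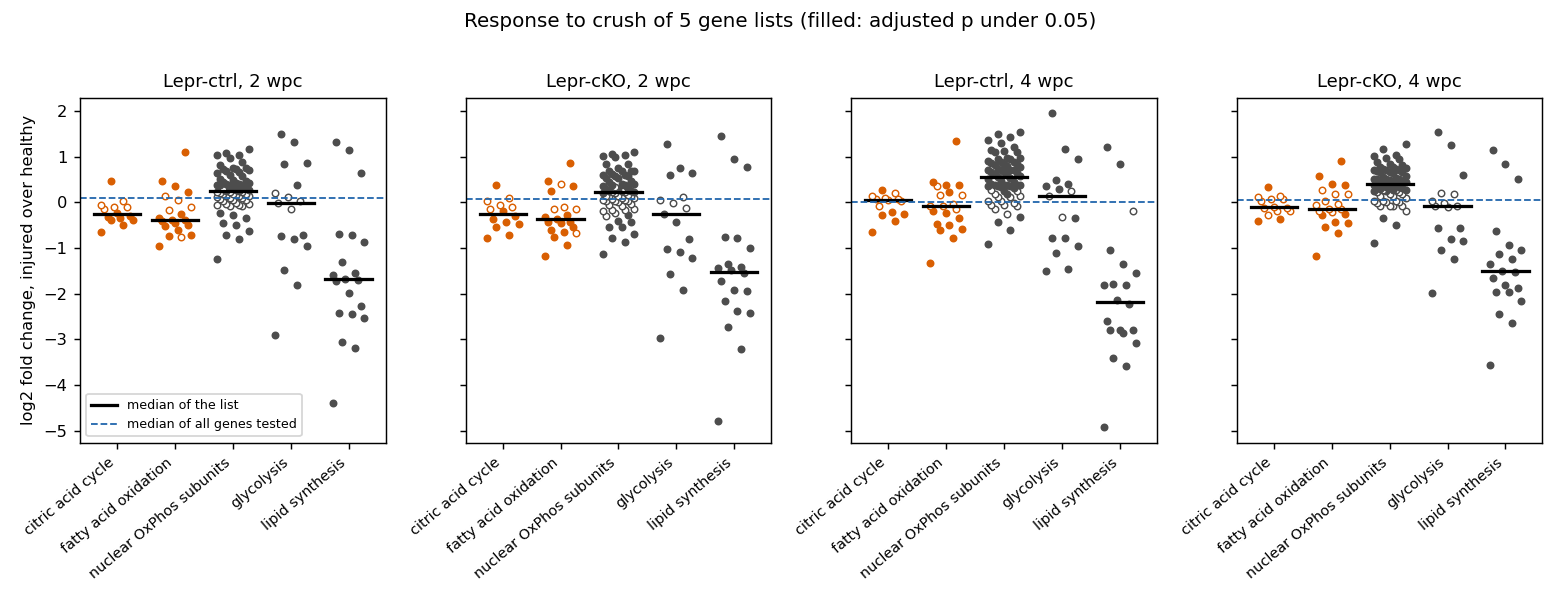
Log2 fold change of injured over healthy nerves (vertical axis) for each gene of 5 lists, in 4 panels by genotype and time, filled where the adjusted p was under 0.05, with list medians (black bars) and the median of all genes tested (dashed line). At 2 wpc the citric acid cycle and fatty acid oxidation genes (orange) have medians from -0.39 to -0.25, and the nuclear OxPhos subunits medians of 0.25 and 0.22.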

How the data were processed

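RNA of 39 sciatic nerve endoneuria from 22 mice was sequenced by the authors with single reads of 50 bases (TruSeq v2 kit, without strand information). Per the labels and the methods of the study, reads were demultiplexed with bcl2fastq 2.20.0.422, aligned to the mouse genome (GRCm38) with STAR 2.5 allowing 2 mismatches, and counted per gene with featureCounts 1.5.0-p1; its use of strand and of reads with several alignments is not given in the sources used here. The deposited values are raw counts for 55573 genes, not normalized.

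Counts were analysed in R 4.3.3 with edgeR 4.0.16 (TMM, genes kept by filterByExpr at min.count 10 and min.total.count 15 for the 8 groups, the quasi-likelihood F test, p adjusted after Benjamini and Hochberg over 18394 genes), in 1 fit over 8 groups and 38 libraries without the injured *Lepr*-cKO library SLRKO2wpc126i. Log2 fold changes are given with standard errors, and 95% intervals are normal intervals from these. Passing means an adjusted p under 0.05; the study's rule, which adds an absolute log2 fold change over 1, is counted beside it. DESeq2 1.42.0, the tool of the study, served as an alternative. The fits were tested on simulated data.

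Gene names and lengths came from GENCODE mouse release M21, promoters from RefSeq. Within-library ratios, shared bases and the *Hadha* to *Hadhb* level ratio were added after values were seen. Members, lists and tests were chosen with earlier results of these data known. Values in every library are given for the genes with the largest changes that passed (up to 4 per direction and time, up to 3 in other comparisons, or the smallest p), for isoform families, and for some others chosen after their values were seen; of neighbouring lists, up to 3 genes per direction in *Lepr*-ctrl mice were eligible.

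The nerves of 16 mice in the fit share an animal number in the titles and come from the same mouse. Deviations from group means over 5000 genes correlated within these pairs at -0.118 to 0.567 (median 0.349, above 0.1 in 14), and the animal was used as a block in an alternative. Other alternatives were DESeq2 size factors, normalization without mitochondrially encoded genes, no filter, at least 10 counts in every library, the groups compared only, the study's fold rule, that library included, transcript length for levels, and leave-one-out fits for each library of the groups with at most 5. Leaving out libraries over 100 CPM of adipocyte markers was added after seeing the data. At the smallest total, 1 CPM equals 10.9 counts. Some results of neighbouring genes are not reported here.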

Additional observations from a re-analysis of the deposited data

Results flagged for a closer look

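In groups of 4 to 6 libraries, 1 library lay far from the rest in 11 of 152 tested groups of named genes, where chance gives about 1 in 20. Animal KO-169 (*Lepr*-cKO, 4 wpc) accounted for 3 of them. *Acaa2* was at 114.5 CPM in its healthy nerve (others 89.8 to 94.9 CPM) and at 80.6 CPM in its injured nerve (61.7 to 63.1 CPM), and *Cpt1a* was at 152.7 CPM in its healthy nerve (120.2 to 124.5 CPM). In its injured nerve, transcripts of mitochondrial DNA took 2.95% of the counts, against 9.84% to 20.2% in the other 3 injured nerves of its group and 2.28% to 4.25% in the healthy ones. Its ratio of *Etfa* to *Etfb* counts (2.7) lay within the range of those healthy nerves (2.08 to 3.01), as did those of *Idh3a* to *Idh3b* (0.654, healthy 0.617 to 0.726) and *Suclg1* to *Sucla2* (0.654, healthy 0.586 to 0.786). The ratios of *Dlst* to *Ogdh* (0.777, healthy 0.62 to 0.782) and *Dld* to *Ogdh* (0.577, healthy 0.471 to 0.602) did so too. These 2 ratios do not single it out, since they were 0.783 and 0.506 in KO-177Sni. They were 0.963 and 0.639 in KO-175Sni, and 1.16 and 0.758 in KO-176Sni. For KO-169Sni, outside the healthy range were *Cpt1c* to *Cpt1a* (0.311, healthy 0.174 to 0.23), *Hadha* to *Hadhb* (7.62, healthy 9.68 to 11), *Suclg2* to *Sucla2* (0.136, healthy 0.166 to 0.225) and *Idh3g* to *Idh3b* (0.978, healthy 0.979 to 1.04). Its sum of repair Schwann cell markers (1400 CPM, healthy 166 to 238 CPM) also lay outside. Without its healthy or its injured library the injury response of *Acaa2* at 4 wpc was -0.48 or -0.67 on the log2 scale, against -0.55 with both, and passed in each fit.

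The injured *Lepr*-cKO nerve SLRKO2wpc135i was high for *Etfdh* (35.3 CPM against 22.4 to 24.4 CPM) and *Suclg1* (43 against 29.5 to 31.4 CPM). Among healthy *Lepr*-cKO nerves at 2 wpc, *Dlst* was low in SLRKO2wpc138c (98.6 against 104.2 to 106.6 CPM), *Etfdh* low in SLRKO2wpc125c (39.7 against 44.4 to 46.6 CPM) and *Cpt2* high in SLRKO2wpc128c (19.8 against 15.7 to 16.8 CPM). In injured nerves at 4 wpc, *Etfa* was high in *Lepr*-ctrl animal WT-171 (56.5 against 44.3 to 45.3 CPM), *Dld* high in *Lepr*-ctrl animal WT-173 (99.4 against 89.6 to 90.2 CPM), and *Suclg2* high in *Lepr*-cKO animal KO-177 (12.9 against 8.88 to 9.54 CPM).

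The injury response differed between 4 and 2 wpc, tested as a difference of responses in edgeR, for *Idh2* (0.43), *Mdh1* (0.38), *Cpt1c* (-0.76), *Echs1* (0.57), *Etfa* (0.62) and *Etfb* (0.89) in *Lepr*-ctrl mice, and for *Idh2* (0.89), *Echs1* (0.52) and *Acaa2* (0.63) in *Lepr*-cKO mice, all on the log2 scale.

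Library SLRKO2wpc126i, which entered only an alternative fit, held 62100 CPM of muscle markers, where *Lepr*-ctrl libraries held 30.3 to 71.8 CPM. Its sums for citric acid cycle and fatty acid oxidation genes were 2960 and 1650 CPM, against 1080 to 1340 and 914 to 1380 CPM.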

How the results depend on the processing

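With the study's fold rule added, 1 of the 35 genes passed after crush at 2 wpc in each genotype. Of all genes, 20.3% did so upward and 14.3% downward in both. At 4 wpc 2 (*Lepr*-ctrl) and 1 (*Lepr*-cKO) of the 35 passed, and 0 in both comparisons over time. The share of all genes under this rule is not given for the latter counts, so nothing is read from them. Including library SLRKO2wpc126i gave 16 (8 higher and 8 lower) in *Lepr*-cKO mice at 2 wpc, 10 and 7 at 4 wpc, 3 and 0 over time, and turned *Idh3a* in *Lepr*-cKO mice at 2 wpc to 0.42 (edgeR adjusted p = 0.139). Without libraries over 100 CPM of adipocyte markers, a setting chosen after seeing the data, 10 and 9 passed at 4 wpc and 0 over time in *Lepr*-cKO mice, but for *Lepr*-cKO mice these rest on 1 injured library at 4 wpc, assumed to vary like the other groups, and say nothing of stability. DESeq2 called 5 over time in *Lepr*-cKO mice. Fits that each lacked a single library gave 22 to 28 and 21 to 26 genes at 2 wpc, 16 to 19 and 10 to 19 at 4 wpc, 4 to 9 and 2 to 3 over time (*Lepr*-ctrl and *Lepr*-cKO), and 0 in the genotype comparisons except injured nerves at 4 wpc, where 2 passed without KO-177Sni. The healthy *Lepr*-cKO group at 2 wpc, with 6 libraries, had none left out. In healthy *Lepr*-ctrl nerves at 2 wpc, the level of *Sucla2* over *Suclg2* was 7.23 per exon length and 9.42 with transcript lengths. That of *Hadha* over *Hadhb* was 7.34 ± 0.44 (SD) and 10.6. Of 1065 values for single genes under other settings, 965 kept their direction and call, 99 kept the direction only and 1 reversed. With the animal as a block (paired nerves), 23 and 24 genes passed at 2 wpc, 15 and 12 at 4 wpc, 7 and 3 over time and 0 for both differences of the responses between genotypes. It changed no call of a named gene other than those given above. No scaling moved the median of all genes by more than 0.09 (log2).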
